A study of Daucus carota with 10 samples.

Results

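The genes described here were high in both tissues of one purple carrot cultivar and low in both tissues of the other. They were chosen by a rule on the deposited FPKM values (fragments relative to exon length and to library depth). After 1 was added to each value, the lowest of the 4 libraries coded E and F had to be at least 4 times the highest of the 4 libraries coded G and H. Of 36089 annotated genes, 40 met this ratio. The rule left out 1 gene, LOC108200579, that was also higher in every H library than in every G library, and the regulators DcMYB6 and DcMYB7, which the study lists among its anthocyanin genes. The remaining 37 genes are the members. The opposite ratio, high in G and H, was met by 92 genes.

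RNA-Seq was performed on taproots harvested 120 days after sowing from greenhouse plants, as 5 groups of 2 biological replicates. The orange cultivar ‘H13.360IND’ gave the CT libraries, from whole slices. From discs of 2 purple cultivars, E and F are the xylem and phloem of one, and G and H those of the other. For each cultivar 10 taproots were mixed, so that a library is a pool of plants. The libraries were scaled by 13909833 to 17118788 fragments. No treatment was applied, and no transgene or mutant was used.

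The sources disagree on the cultivars. The deposited titles give ‘Purple Haze’ for E and F and ‘Purple 68’ for G and H, with E labelled orange and G purple, whereas the paper and the series design give ‘Purple 68’ for E and F and ‘Purple Haze’ for G and H. The mean FPKM of CHS1, a chalcone synthase gene at the entry to flavonoid synthesis, was 6056 (E), 8245 (F), 7377 (H), 76.9 (G) and 8.56 (CT). DcMYB6 stood at a mean of 35.8 FPKM in E and 43.5 in F, against 0.760 in G and 0.0276 in H. CHS1 was thus low in G, which the titles' records label purple, and high in E, which they label orange. Group letters are used for this reason, and the cultivar names were not settled here. As a marker of phloem, the APL-like gene LOC108225351 had means of 0.0198 (E), 0.300 (F), 5.35 (G), 0.246 (H) and 1.48 FPKM (CT), and was highest in the xylem G. This single gene, at low levels throughout, cannot decide the tissue labels, which could not be checked further from named markers.

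In a carrot taproot the xylem forms the core and the phloem the outer storage tissue, with the cambium between them. A transcript that differs between cultivars in both tissues separates the plants rather than the tissues. Members with an Arabidopsis match fall into hormone metabolism and signalling, protein folding, serine and one-carbon metabolism, respiration and translation. In plants, cytokinin glucosyltransferases attach glucose to cytokinins, JAZ proteins repress jasmonate responses until they are degraded, and small heat shock proteins hold unfolding proteins in a soluble state.

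The members covered a wide range of levels, with means over E and F from 4.74 to 7074 FPKM. This mean was below 10 FPKM in 7 members, 10 to 50 in 19, 50 to 500 in 10 and over 500 in 1, with a median of 19.6. The median of their means over G and H was 0.0880 FPKM. These E, F, G and H levels were the values used to choose the genes, so they are a description and carry no test. In these tissue samples, fewer cells that express a gene and less RNA per cell cannot be told apart.

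The most abundant member was LOC108214579, on the minus strand of long sequence 3 from 5651759 to 5652527. It stood at 5664 and 10097 FPKM in E, 5773 and 6761 in F, 552 and 159 in G, 261 and 690 in H, and 463 and 652 in CT. All E and F libraries were above all others, and CT overlapped G and H. Together the 37 members made up 0.856 to 1.44% of the summed FPKM in the E and F libraries, 0.0250 to 0.0845% in G and H and 0.0820 to 0.114% in CT. Without LOC108214579 their share was 0.153 to 0.259% in E and F, 0.00441 to 0.00544% in G and H and 0.0186 to 0.0218% in CT.

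**Figure D1:**
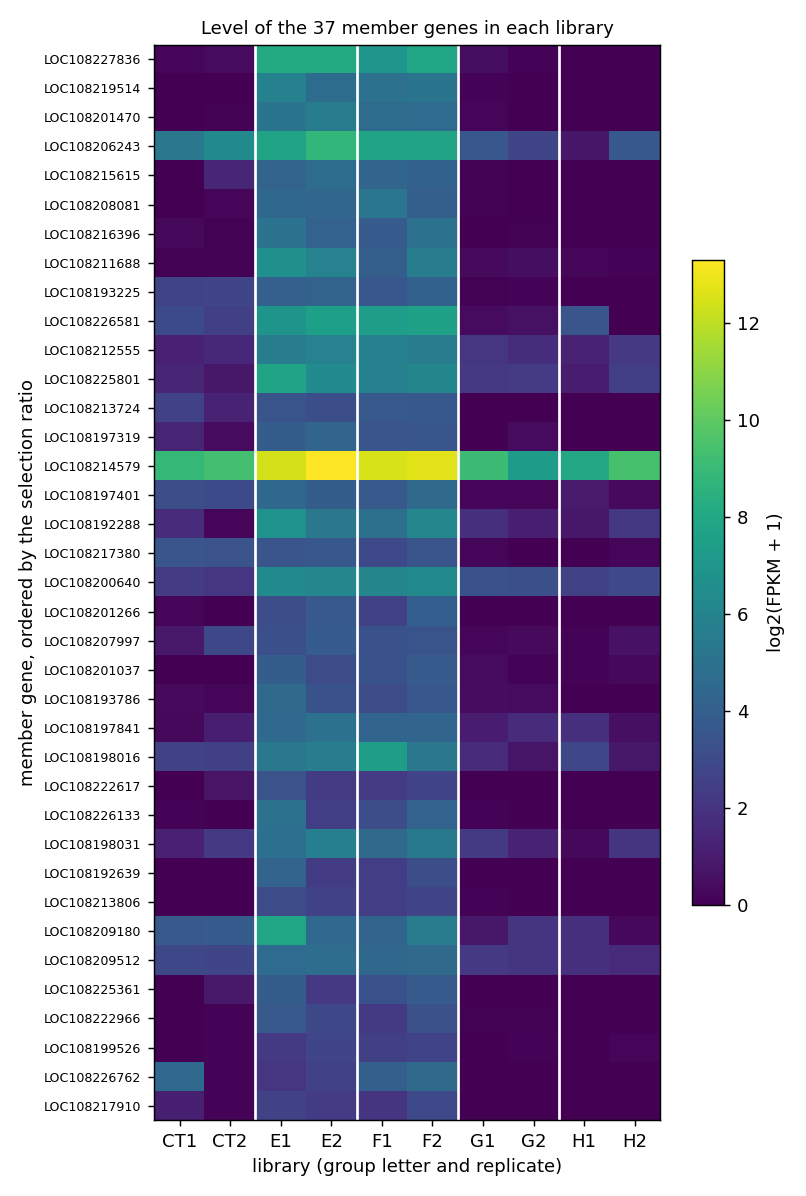
Level of each of the 37 members in each of the 10 libraries, as log2(FPKM + 1) in colour, with members in rows by the selection ratio and libraries in columns by group. The E and F columns are bright by selection, LOC108214579 is the brightest row, and the CT columns are dark for most members and bright for a few, among them LOC108206243.

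The largest separation was that of LOC108227836, on the minus strand of long sequence 6 from 4313565 to 4332593. Its values were 278 and 281 FPKM in E, 124 and 231 in F, 0.396 and 0.103 in G, 0 and 0 in H, and 0.118 and 0.287 in CT. The lowest E or F value plus 1 was 89.3 times the highest G or H value plus 1. With fragments pooled over libraries, the level in E and F was 1861 times that in G and H. Against it, G and H held 14 fragments of this gene in all, and CT held 12. The gene overlaps LOC108227837 and LOC108227838 on the same strand, both of which were near 0, so that reads of these loci cannot be fully told apart.

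LOC108219514 followed with a ratio of 23.5, at 56.4 and 25.0 FPKM in E, 30.3 and 34.2 in F, and at most 0.106 in any G or H library. LOC108201470 had 34.0 and 47.9 FPKM in E, 24.8 and 24.2 in F, and 0.123 in G1 but 0 in the 3 other G and H libraries. Both were at 0 in CT1, and at 0.0314 and 0.0545 FPKM in CT2, so CT resembled G and H here. LOC108215615, LOC108208081 and LOC108216396 were likewise nearly absent from G and H, with E and F means of 19.6, 23.3 and 23.6 FPKM and no G or H value above 0.0660. In CT they stood at 0 and 1.72, 0 and 0.114, and 0.208 and 0.0422 FPKM, so LOC108215615 in CT2 was above G and H.

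A second pattern was a high level in E and F over a clear level elsewhere. LOC108206243 had 220 and 440 FPKM in E, 219 and 220 in F, 11.3 and 5.80 in G, 0.762 and 11.7 in H, and 38.1 and 79.8 in CT. CT thus lay between both pairs of groups for this gene. LOC108200640 was measured at 77.9 and 71.3 FPKM in E, 66.0 and 81.1 in F, 9.27 and 8.35 in G, 5.25 and 6.52 in H, and 4.11 and 3.34 in CT. Its E and F libraries agreed closely, and its CT values were below every other library.

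The G and H libraries were near the limit of detection for many members. The highest G or H value was below 1 FPKM in 25 members and at least 5 FPKM in 5. All 4 G and H libraries were at 0 for 6 members, and 16 members had no more than 3 fragments over those libraries together. For LOC108201266, at 7.88 and 12.1 FPKM in E and 5.16 and 15.0 in F, 3 fragments in 1 library correspond to 0.158 to 0.194 FPKM. Against a floor of 3 fragments over the 4 libraries, its level from pooled fragments was at least 232-fold higher in E and F. For LOC108213724, at 9.81 and 8.23 FPKM in E and 11.9 and 11.5 in F, the difference was at least 137-fold, and CT stood at 5.05 and 1.46. This gene and LOC108207997 are long non-coding RNA genes in the RefSeq annotation of assembly DH1 v3.0, where the other 35 members are protein coding.

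LOC108193225 had 15.9 and 17.7 FPKM in E, 11.0 and 16.6 in F, 0.0590 and 0.112 in G, 0 and 0 in H, and 5.66 and 5.80 in CT. Its CT libraries were close to each other and stood between the 2 cultivars. Both H libraries were at 0 for 17 members, and both G libraries for 6. The same counts over all genes were not made. Annotated genes detected numbered 24674 in H1, 23172 in H2, 24334 in G1 and 24296 in G2. LOC108200579, the gene left out as higher in H than in G, was above 0 in every G and H library.

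The pathway lists supplied with the study placed 7 members in a pathway and gave each a best match in Arabidopsis. The lists hold genes that the authors had called as differing between these same libraries, so membership is not independent of the selection. The remaining 30 members had no pathway in the parts of the lists that could be read, and no member has a gene symbol of its own in RefSeq.

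Of the hormone genes, LOC108226581 matches AT1G19180, the jasmonate repressor JAZ1 of Arabidopsis. It stood at 119 and 184 FPKM in E, 174 and 196 in F, 0.294 and 0.491 in G, 10.3 and 0 in H, and 6.81 and 4.69 in CT. A single library, H1, carried nearly all of its signal in G and H. Another gene with the same match, LOC108226535, had 60.5 and 43.5 FPKM in E, 44.5 and 103 in F, 18.8 and 6.53 in G, 9.25 and 10.6 in H, and 12.3 and 28.0 in CT. Its E and F libraries were again all above G and H, by a ratio of 2.25 that did not reach the threshold.

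LOC108197319 matches AT1G22400, a cytokinin glucosyltransferase of Arabidopsis, and is listed under zeatin biosynthesis. It had 14.3 and 19.5 FPKM in E, 10.5 and 10.9 in F, 0.0334 and 0.319 in G, 0 and 0 in H, and 1.60 and 0.296 in CT. The gene next to it, LOC108197852, lies 2107 bases away on the same strand and has the same match. With 4.81 and 7.68 FPKM in E, 3.04 and 3.62 in F and at most 0.181 in G and H, it resembled the member and fell short of the threshold at a ratio of 3.42. One more gene with this match, LOC108194158, stood the other way round, at 0.0720 and 0.0374 FPKM in E, 0.0785 and 0.0722 in F, 4.91 and 6.89 in G, 15.9 and 9.31 in H, and 4.20 and 5.5 in CT. Of the 3 genes with this match, 2 were thus high in E and F and 1 in G and H, all taken from lists of genes already called as differing. Reads shared between such copies were not examined.

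Among chaperone genes, LOC108225801 matches AT5G59720, a cytosolic small heat shock protein of Arabidopsis. Its values were 214 and 84.5 FPKM in E, 56.9 and 68.5 in F, 3.69 and 3.97 in G, 1.04 and 4.59 in H, and 1.66 and 0.781 in CT. LOC108192288 matches AT4G10250, a small heat shock protein of the endoplasmic reticulum, and had 115 and 38.2 FPKM in E, 28.6 and 70.5 in F, 2.53 and 1.24 in G, 0.794 and 3.43 in H, and 2.2 and 0.128 in CT. Both varied up to several fold between replicates within E or F, with E1 the highest library for each. The other gene matching each of them, LOC108213227 and LOC108202086, also had every E and F library above every G and H library. LOC108213227 stood at 71.9 and 52.6 FPKM in E, 10.8 and 13.3 in F, and at most 2.2 in G and H. LOC108202086 was at 39.1 and 9.60 FPKM in E, 2.35 and 33.9 in F, and at most 0.898 in G and H, with E2 and F1 well below E1 and F2.

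**Figure D2:**
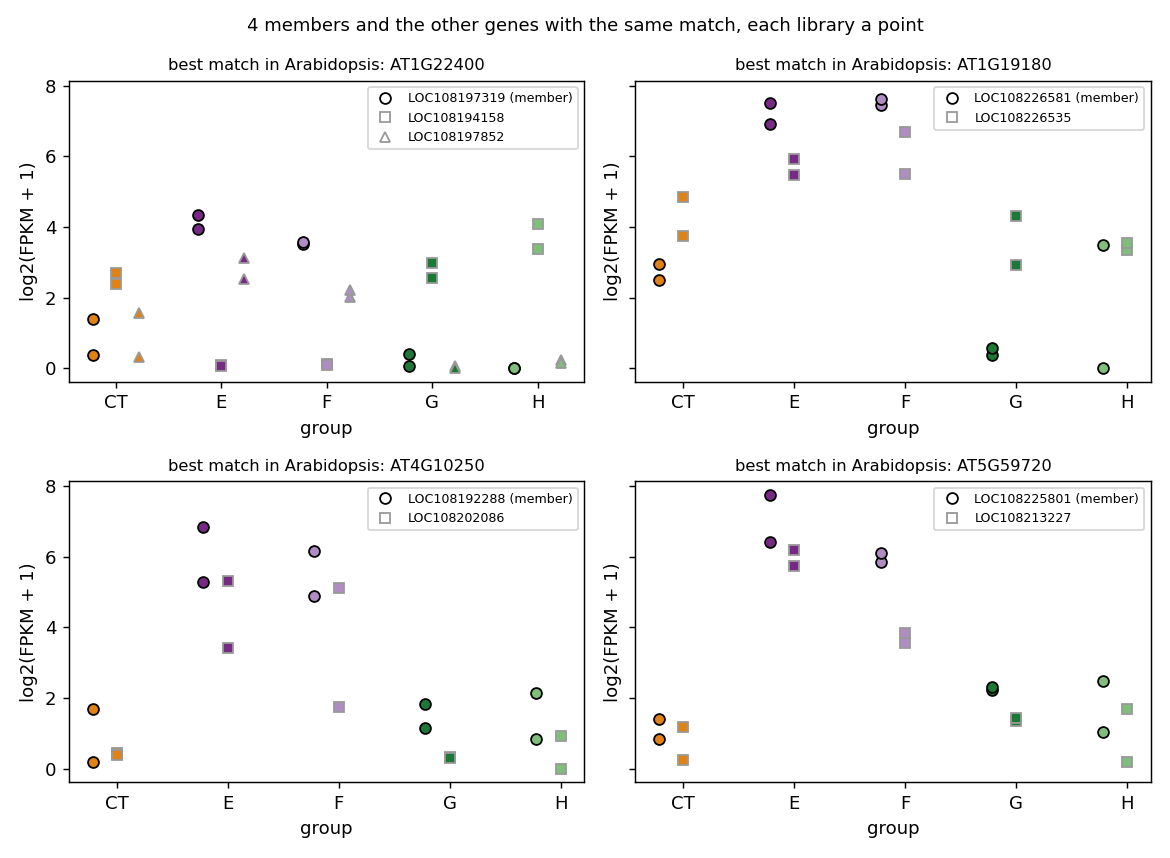
Level, as log2(FPKM + 1), of 4 members (circles with black edges) and of the other annotated genes with the same best match in Arabidopsis (squares and triangles with grey edges), by group, with each library a point. LOC108194158 is low in E and F and high in G and H, the reverse of LOC108197319, and the other 4 non-members are higher in every E and F library than in every G and H library.

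Of the metabolic genes, LOC108209512 matches AT4G32520, a serine hydroxymethyltransferase of Arabidopsis, the enzyme that passes a one-carbon unit from serine to folate. It had 24.6 and 25.9 FPKM in E, 20.9 and 23.5 in F, 3.67 and 3.22 in G, 2.53 and 1.97 in H, and 6.35 and 5.77 in CT, with little spread between replicates in any group. Here G and H kept a clear level, and the level of E and F from pooled fragments was 8.36 times theirs. A locus outside the annotation has the same match and stood the other way round. It was at 0 in every E, F and CT library, at 6.48 and 0 FPKM in G, and at 6.86 and 8.58 in H. LOC108199526, matching AT4G29480, a subunit of the mitochondrial ATP synthase, was one of the lowest members, at 3.81 and 5.89 FPKM in E and 4.75 and 5.35 in F, and at most 0.115 in G and H. LOC108225361, matching the ribosomal protein gene AT5G15220, had 14.3 and 3.56 FPKM in E, 9.29 and 13.3 in F and 0 in every G and H library.

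Most other genes of these lists did not share the pattern. Of the 34 other readable genes of plant hormone signal transduction, 7 were higher in every E and F library than in every G and H library and 6 were lower in every one. Of the 20 other genes of protein processing in the endoplasmic reticulum, 6 were higher in this sense and 6 lower. Of the 6 other ribosome genes, 0 were higher and 4 lower. Some lists leaned toward E and F: of 23 other genes of carbon metabolism, 9 were higher and 2 lower. Of 116 of biosynthesis of secondary metabolites, 22 were higher and 14 lower. Metabolic pathways leaned the other way, with 17 of 121 other genes higher and 22 lower. Among all annotated genes that reached 1 FPKM in a library, 6.40% were higher, and 16.4% were either higher or lower. The list genes had been called as differing between these libraries, so their counts are not comparable with these shares. Zeatin biosynthesis held 4 other readable genes, of which LOC108197852, next to the member, was higher and LOC108194158 lower.

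The orange cultivar CT was not used by the rule and shows where the members stood in a root outside the selection. As CT was set beside values that the rule had chosen, no test was made. In 25 members, 4 times the higher CT value plus 1 was still no more than the lowest of E and F, and 0.421% of all annotated genes were of this kind. In 3 members the lower CT value plus 1 was at least 4 times the highest of G and H, against 0.158% of all annotated genes. The first count partly follows from the selection of genes high in E and F, and the second from that of genes low in G and H. The other 9 members met neither condition. The median CT mean was 3.42% of the E and F mean.

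The 3 members with CT that far above G and H were LOC108193225, LOC108197401 and LOC108217380. By level alone, CT was highest in LOC108214579 and LOC108206243. LOC108217380 was as high in CT, at 10.5 and 9.59 FPKM, as in E, at 10.4 and 11.1, and in F, at 6.66 and 10.4, and its highest G or H value was 0.167. LOC108197401 had 8.04 and 6.90 FPKM in CT, 21.7 and 14.3 in E, 12.3 and 22.9 in F, and at most 0.957 in G and H. For LOC108217380, G and H thus stood apart from both other cultivars. Without either CT library, 5 members in place of 3 were in this class.

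At the other end, both CT libraries were below 1 FPKM in 16 members, and LOC108201037, LOC108192639 and LOC108213806 were at 0 in both. In LOC108211688, CT stood at 0.0610 and 0.0496 FPKM against 103 and 59.4 in E and 15.1 and 46.3 in F. Of the members that reached 1 FPKM in a CT library, 4 had CT libraries more than 10-fold apart. Among them, LOC108226762 was at 22.7 FPKM in CT1 and 0.0772 in CT2, and LOC108215615 at 0 in CT1 and 1.72 in CT2. In LOC108226762, CT1 was within the range of F and CT2 near the 0 of G and H.

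**Figure D3:**
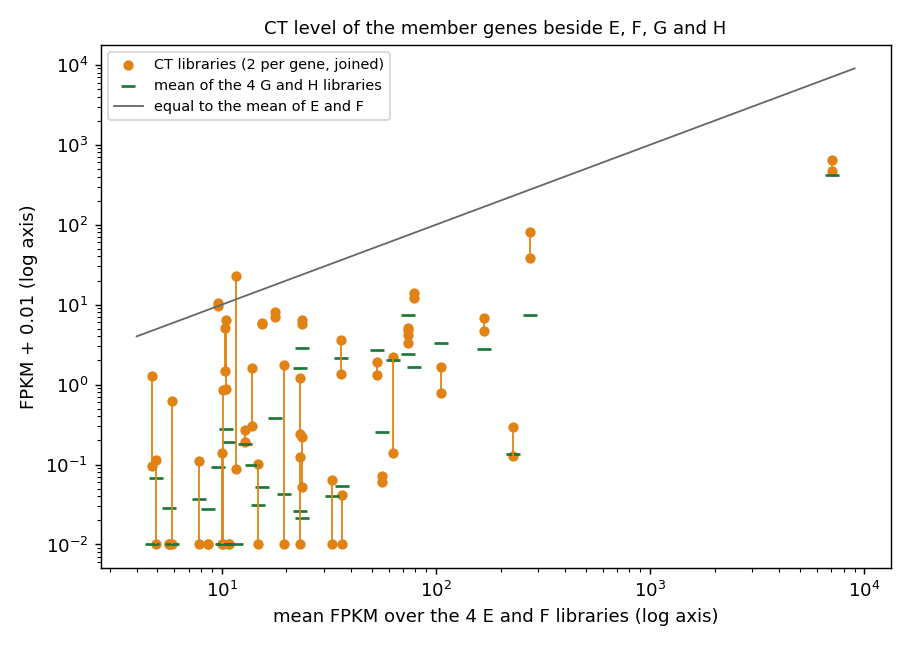
FPKM of the members in the 2 CT libraries (orange points, joined for each gene) and mean of the 4 G and H libraries (green bars), both with 0.01 added, against the mean FPKM of the 4 E and F libraries, on log axes. Most CT points lie far below the line of equality, those of LOC108217380 at 10.5 and 9.59 FPKM lie on it, and LOC108226762 is joined from 22.7 down to 0.0772 FPKM.

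The xylem and phloem of the E and F cultivar were compared next. The rule did not set E against F, but it used all 4 of their libraries, since a low value in any of them kept a gene out, and so it limits how far E and F can differ among members. All 37 members passed the filter of a mean of at least 1 FPKM in E or F, which selection at a high level ensures. With limma on log2(FPKM + 1), calls needed an adjusted p below 0.05 and a log2 fold change of 1 or more in either direction. By this test, 0 members were called in either direction. Of all 18293 loci tested, 0.0547% were called higher in E and 0.317% higher in F. At an unadjusted p below 0.05 with the same fold, 2 members passed with limma, where 10.6% of all loci did. With voom on recovered fragments 2 members passed, again beside 10.6% of all loci. After adjustment voom called 0 of all loci, so it could call no member. As the rule limits such differences among members, these counts are not comparable with the shares of all loci. With 2 libraries a group, a missed call does not show equal levels.

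Of those, LOC108226762 was the member farthest toward the phloem, at 3.28 and 4.90 FPKM in E and 15.3 and 23.2 in F. Its log2 fold change of E over F was -1.99 with a standard error of 0.42 (limma, adjusted p = 0.12). LOC108211688 was the farthest toward the xylem, at 103 and 59.4 FPKM in E and 15.1 and 46.3 in F, with a log2 fold change of 1.52 and a standard error of 0.57 (limma, adjusted p = 0.37). Neither gene's groups overlapped, but neither difference passed the correction over all loci. LOC108225801, the small heat shock gene, had a log2 fold change of 1.10 with a standard error of 0.46 (limma, adjusted p = 0.44). LOC108209180 had one of 1.23 with a standard error of 1.08, as E1 stood at 227 FPKM, E2 at 22.2, F1 at 18.7 and F2 at 47.6, and its CT libraries were at 11.9 and 13.8.

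The log2 fold changes of E over F ran from -1.99 to 1.52, with standard errors of 0.25 to 1.08. Their median was 0.24, beside -0.03 over all loci tested, and 29 of the 37 were above 0. Both E libraries were above both F libraries in 8 members, and the reverse held in 2, where 13.3% and 24.8% of all loci tested did so. Without E1 the median of the members was 0.03 and that of all loci -0.28, with 19 members above 0, so the members' median fell together with that of all loci. Without E2 the medians were 0.28 and 0.13. They were 0.09 and -0.11 without F1, and 0.48 and 0.04 without F2, so the members' median depended on the F libraries too.

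**Figure D4:**
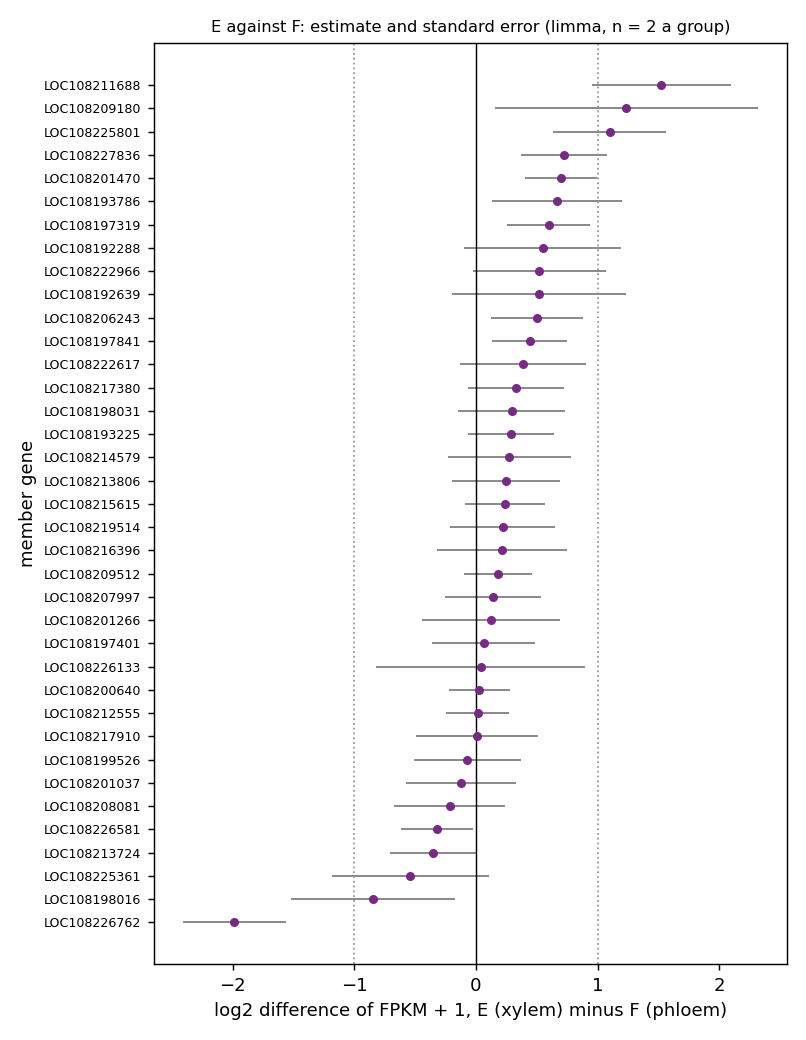
Log2 difference in FPKM + 1 between E (xylem) and F (phloem) for each member, with its standard error from limma and 2 libraries a group. Dotted lines mark a change of 1 in size, and LOC108226762 at -1.99 and LOC108211688 at 1.52 are the outermost points.

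In the spread of their differences, replicates of the members were about as in other genes. The standard deviation of the log2 difference between replicates was 1.0 for members and 0.88 for all loci tested in E, and 0.69 and 0.68 in F. F2 was above F1 in 30 members and E1 above E2 in 19, and F1 held the lowest of the 4 E and F values in 20. These orders were not counted over all loci, so they cannot be told apart from a shift of whole libraries. In 17 members the highest E or F library was less than 2 times the lowest, and in 11 it was over 3 times. The widest of the group, LOC108209180, had one E library that stood alone. LOC108198016 was the case in phloem, at 39.4 and 49.6 FPKM in E, 168 in F1 and 38.2 in F2, with 5.06 and 4.77 in CT.

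The members were scattered over the genome. Each of the 9 long reference sequences, numbered here in the order of the files, held 1 to 6 members, and 2 were on shorter sequences. No 2 members were next to each other in gene order. The closest pair was LOC108209512 and LOC108199526, the serine hydroxymethyltransferase and ATP synthase genes, whose starts were 9912 bases apart on long sequence 1. The gene between them, LOC108211272, did not follow them, with a mean of 3.23 FPKM in E and F and 2.85 in G and H. By strand, 13 members were on plus and 24 on minus, and their median exon length was 1112 bases, against 1515 over annotated genes.

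Genes beside members mostly did not share the pattern. Of 72 neighbours that were not members, 43 reached 1 FPKM in a library, and the median of their log2 ratios of E and F to G and H was -0.07. In 6 of the 43, or 14.0%, every E and F library was above every G and H library, where 6.40% of annotated genes were. The neighbours nearest to the threshold were LOC108197852, beside LOC108197319, and LOC108225894, which lies 15792 bases from the JAZ1 match LOC108226581. LOC108225894 had a mean of 8.83 FPKM in E and F, 0.0161 in G and H and 2.77 in CT.

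**Figure D5:**
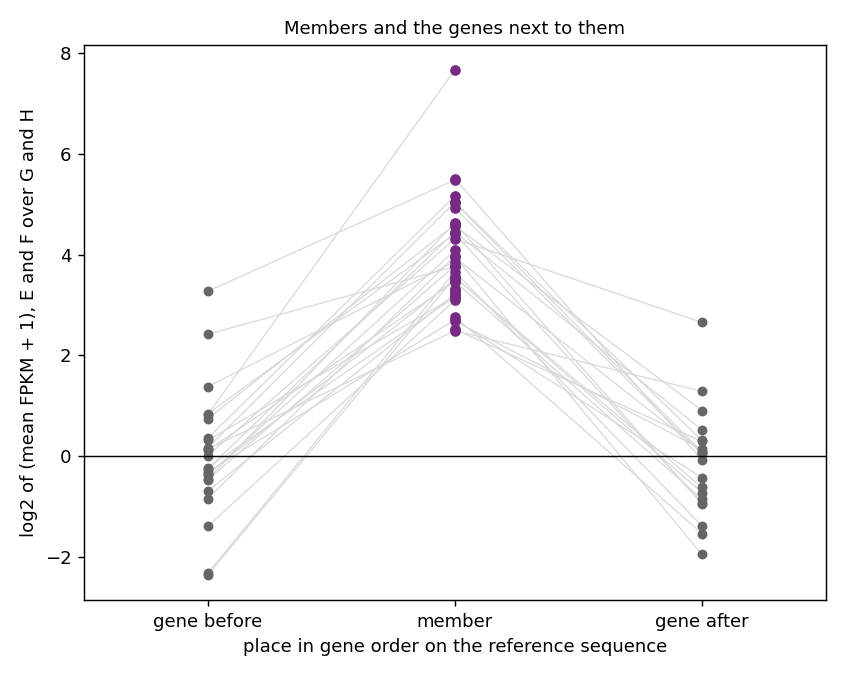
Log2 ratio of mean FPKM + 1 in E and F to that in G and H for the 37 members (centre) and for the genes before and after each, where these reached 1 FPKM in a library, with grey lines joining neighbours. The neighbours have a median of -0.07, and LOC108225894 and LOC108197852 are the highest among the genes before a member.

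At the threshold the values changed gradually. Just inside were LOC108217910 with a ratio of 4.08, LOC108226762 with 4.28 and LOC108199526 with 4.31, whose lowest E or F values were 3.08, 3.28 and 3.81 FPKM. Just outside were LOC108216795 with 3.98, LOC108215138 with 3.93 and LOC108204086 with 3.89, whose lowest values were 5.68, 9.46 and 4.22 FPKM. The last of these had 13.0 FPKM in CT1 and 0.151 in CT2.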

How the data were processed

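The authors aligned reads to the NCBI carrot genome with TopHat2 2.0.12 and Bowtie2 2.2.3, counted with HTSeq 0.6.1, called DEGs with DESeq 1.18.0, and deposited FPKM per locus for each library. The build was not given in the sources used here. Positions are those of the files. Gene classes and symbols were looked up in RefSeq (DH1 v3.0), which matched 32534 of 36089 IDs (90.2%) and all 37 members. No coordinates were taken from it. Library totals were recovered from steps in the low values, and 75.4% of detected loci gave whole fragments (within 0.02) with the listed length. Such numbers cover counting error only.

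E and F were compared with limma 3.58.1 (R 4.3.3), letting the prior variance follow the level, and Benjamini-Hochberg adjustment over all loci averaging 1 FPKM or more in E or F. P-values measure the spread between these pools. Tables and plots used Python 3.11.15, pandas 2.3.3, numpy 2.4.6 and matplotlib 3.10.9.

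Members and lists were chosen with earlier results of these data known. Members named were the 10 with the largest ratio, the 8 highest in E and F, the 4 highest in CT and those nearest the threshold. The 7 with a pathway, and others singled out, were named after their values were seen. Lists and markers by product name could not be applied, as no names were at hand, and no sequences were used. Alternatives were other pseudocounts, factors, scalings, filters and fits, voom, and each library left out.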

Additional observations from a re-analysis of the deposited data

How the results depend on the processing

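The count of 37 genes depended on the settings of the rule: it was 133 with a pseudocount of 0.1, 140 with a factor of 2 and 15 with a factor of 8. Leaving out 1 library gave 38 to 56 genes, with 56 without F1. The number of members with CT above G and H, 3 here, was 6 with a factor of 2 and 5 without either CT library. The cause was not tested. With E and F, the test called 0 members under every alternative that kept both libraries of each group, the replicate block included (0 members). Voom called 0 of all loci, so its result for the members was fixed. The paper does not state whether E and F libraries of the same number came from the same roots, and the main test used no pairing. Their replicate differences correlated at -0.29 over loci, which cannot settle how the libraries were paired. A block with the numbers of F crossed, chosen after seeing the data, also called 0 members, and the blocks called 582 and 566 of all loci against 68 without. LOC108211688 was just over the threshold in both, at an adjusted p of 0.0503 in the replicate block and 0.0504 in the crossed one (limma). Over all loci the other settings gave 0 to 879 calls, with 879 in a fit of all 10 libraries, 13 with no filter on low values, 147 with quantile normalization and 0 with voom. Leaving out 1 library gave 0 to 17.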

Other observations

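Outside the annotation, 6 loci met the same ratio. All were at a mean of at most 14.8 FPKM in E and F, and 5 were at 0 in every G and H library. The highest, on long sequence 1 from 14275790 to 14335786, had means of 14.8 FPKM in E and F and 0 in CT. Another on that sequence, from 14465913 to 14470031, had 13.7 FPKM in E and F and 0.784 in CT. The locus on long sequence 3 from 17870730 to 17878256 had 7.48 FPKM in E and F, 0.0381 in G and H and 3.35 in CT. None of the 5 on long sequences lay within 3265777 bases of a member. Members and the 92 genes of the opposite ratio were spread differently by count, with 1 member and 15 opposite genes on long sequence 5 and 6 of each on long sequence 6, which was not tested.

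LOC108200579, left out of the members because it was higher in H than in G, stood at 62.6 and 34.5 FPKM in E, 24.8 and 53.5 in F, 0.297 and 0.142 in G, 4.37 and 2.79 in H, and 2.86 and 4.04 in CT. Its H libraries were at about the CT level.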
